A study of Drosophila melanogaster with 20 samples.

Results

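In whole Drosophila melanogaster embryos of 5 genotypes, 25 genes of 8360 had mean signals that stepped down in the same order as the stated activity of Mef2, and they are described here array by array. They were chosen by the group means themselves: the mean of log2(signal + 16) had to be lower in 65 than in the control, lower again in 424, in 113 and in the null, with the control at least 0.4 above 113 and 65 at least 0.6 above the null. Because these means chose the genes, every level and difference of the 25 genes is a description and carries no test. A further 11 muscle and hormone-response genes that had already been described were left out by name, and 7 of those met the same conditions.

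The embryos were pooled at mid stage 13, early in muscle differentiation, in groups of 150, and each genotype had 4 Affymetrix arrays. The genotypes were mef2(22.21), a null allele, mef2(113), mef2(424) and mef2(65), hypomorphic alleles in rising order of activity per the labels, and the control stock, which carries the visible markers dp, cn, a, px and sp. The alleles 113, 424 and 65 were induced in that control stock, and the labels name no such parent for the null allele. Eggs were collected over 30 minutes and the embryos kept at 25 °C for 6.5 h, and mutant embryos were picked by the absence of a GFP balancer chromosome. Each genotype is a single allele, and nothing in the labels says that its 4 arrays came from separate collections, so the spread between arrays may be technical. In whole embryos, fewer cells of a type and less RNA per cell cannot be told apart. The 4 mutant genotypes share the same control arrays. Mef2 itself was not analysed here.

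Mef2 is a MADS-box transcription factor that binds regulatory DNA of muscle genes and is needed in Drosophila for myoblasts to differentiate into somatic, visceral and cardiac muscle. Myoblasts are specified without it, and the genes for contractile proteins, membrane complexes and attachment to tendon cells are then switched on as muscles form. An allelic series sets such genes against several levels of the same factor, so that genes can be compared by the activity at which their transcripts become low.

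Of the 25 genes, 12 have a gene name and 13 carry only a CG number. The genes taken here as muscle genes were Mp20, Scgalpha, if, nau and mib2. Mp20 is a muscle protein of the calponin family, and Scgalpha is a subunit of the sarcoglycan complex of the muscle membrane. The gene if encodes the alpha-PS2 integrin of muscle attachment sites, nau the MyoD homologue, and mib2 a ubiquitin ligase needed for muscle integrity. The CG genes were not sorted in this way. The other named genes were jhamt, which encodes the methyltransferase of juvenile hormone synthesis, frac, Mal-A5, a maltase gene, GstD7, a glutathione S-transferase gene, Ir76a, an ionotropic receptor gene, rec, a gene of meiotic recombination, and Neurochondrin. The mean signals in the control spanned 21.7 to 2659, so the order was met by faint and by bright probe sets.

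Over the 25 genes, the median difference from the control on the log2(signal + 16) scale was -1.34 in the null, -0.92 in 113, -0.50 in 424 and -0.32 in 65. Over all 8360 genes the medians were -0.01, 0.000794, 0.00734 and 0.01 in the same order of genotypes. In linear signal, the median gene was at 26.8% of the control in the null, 45.1% in 113, 62.6% in 424 and 76.7% in 65. The null differences ran from -2.59 for CG5080 to -0.76 for CG32425, and those in 65 from -0.76 for CG33090 to -0.004002 for Neurochondrin. The differences on this scale understate the change of faint genes: 7 of the 25 had a null mean log2 value, and 3 of those also a 113 mean log2 value, under the filter, which corresponds to a signal of 9.28.

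**Figure D1:**
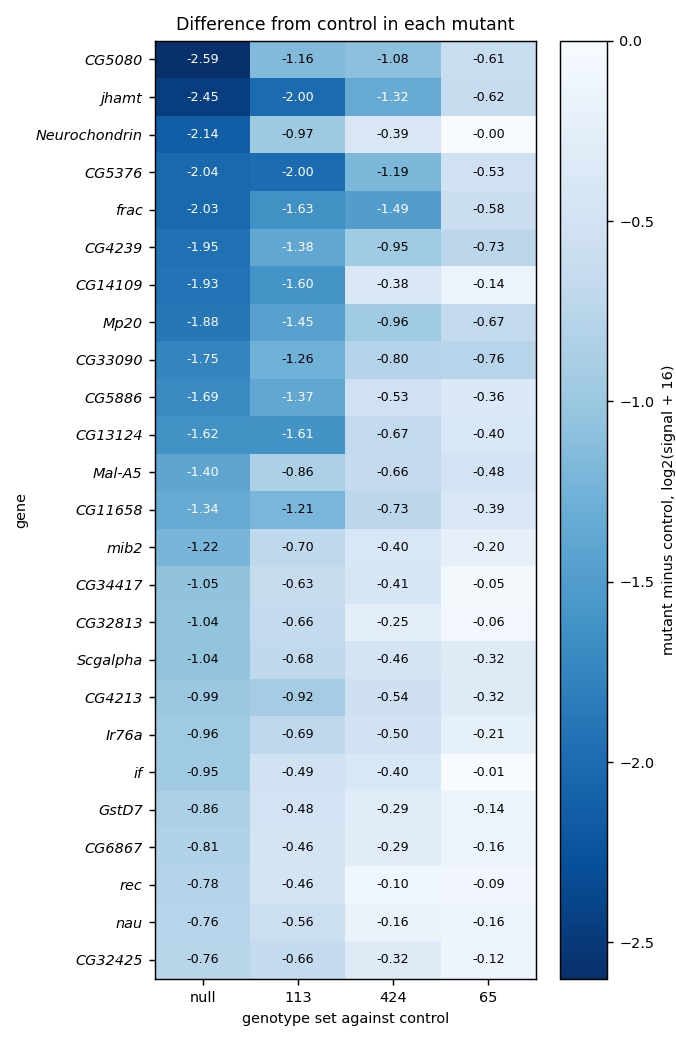
Difference of each mutant genotype from the control on the log2(signal + 16) scale for the 25 genes (rows, ordered by the null difference; columns, null, 113, 424 and 65; n = 4 arrays per genotype). Every row lightens towards 65 because the genes were chosen for that order, and the rows differ in where the change lies: CG5376 reached -1.996 already in 113, against -2.04 in the null, while Neurochondrin was at -0.97 in 113 and -2.14 in the null. For CG5376 the mean log2 values of 113 and of the null both lay under the filter, where little further fall could show.

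The limma fit over all genes, described under processing, called 24 of the 25 genes lower in the null, where 10.9% of all genes were called lower, and 21 in 113, where 3.95% were. It called 11 lower in 424 (5.49% of all genes) and 5 lower in 65 (3.10% of all genes). These comparisons entered the choice of the genes, so nothing is read from the counts or from which genes were called. The gene not called in the null was rec, and the 5 called in 65 were CG5080, CG33090, CG4239, CG5886 and jhamt.

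Among the muscle genes named above, Mp20 had the largest null difference. Its signals were 33.4, 50.6, 8.89 and 62.8 in the null, 78.1, 50.1, 36.3 and 49.8 in 113, 81.02, 58.5, 92.9 and 90.3 in 424, 140.1, 74.2, 124 and 77.2 in 65 and 173, 174, 199 and 138 in the control. The null and control arrays did not overlap, and arrays of neighbouring genotypes overlapped at each of the 4 steps. The means were 38.9 ± 23.4 in the null and 171 ± 25.4 in the control (values with ± are mean ± SD, n = 4 arrays). Its differences from the control were -1.88 in the null, -1.45 in 113, -0.96 in 424 and -0.67 in 65. In 65 the mean signal was at 60.8% of the control. The 65 arrays were at 140.1 and 124 on fluidics module 1 and at 74.2 and 77.2 on module 3. All control arrays were on module 4, so no array of 65 shared a module with the control.

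Transcripts of mib2 had signals of 164, 179, 133 and 128 in the null, 249, 271, 178 and 195 in 113, 342, 234, 284 and 256 in 424, 373, 321, 319 and 269 in 65 and 358, 396, 336 and 388 in the control. All arrays of the null and of 113 lay below all control arrays, whereas 424 and 65 overlapped with the control. Its differences were -1.22 in the null, -0.70 in 113, -0.40 in 424 and -0.20 in 65, and 42.2% of the whole log2 difference lay between the null and 113. Scgalpha had 12.5, 13.9, 9.76 and 15.3 in the null, 23.6, 18.9, 21.6 and 19.6 in 113, 26.1, 20.3, 32.5 and 30.2 in 424, 26.9, 41.6, 23.7 and 35.9 in 65 and 49.9, 42.7, 46.5 and 35.2 in the control. Here 113 and the null did not overlap, and the other 3 steps did, with a mean of 12.9 ± 2.36 in the null and 43.6 ± 6.304 in the control.

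The integrin gene if and the MyoD homologue nau showed the smallest null differences of the muscle genes named above, at -0.95 and -0.76. Signals of if were 45.2, 24.5, 38.8 and 22.8 in the null, 52.02, 52.5, 51.8 and 43.5 in 113, 65.5, 57.1, 39.2 and 57.4 in 424, 86.2, 61.8, 77.1 and 80.7 in 65 and 60.5, 70.9, 85.6 and 92.3 in the control. The 65 and control arrays of if overlapped, with means of 76.5 ± 10.4 in 65 and 77.3 ± 14.3 in the control, so its position in the order rests on a log2 difference of -0.01 at that step. Signals of nau were 17.8, 23.05, 21.9 and 27.5 in the null, 26.8, 31.9, 24.5 and 29.7 in 113, 38.1, 46.1, 43.2 and 41.7 in 424, 35.3, 40.3, 52.6 and 42.4 in 65 and 54.6, 40.1, 54.9 and 48.2 in the control. For nau, 424 and 65 were almost level, at 42.3 ± 3.32 in 424 and 42.6 ± 7.28 in 65, and the arrays of 113 were all below those of 424.

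Outside the muscle genes named above, jhamt was lower at every step, and its difference was spread over all 4 steps. Its signals were 1.35, 1.802, 3.24 and 2.45 in the null, 11.5, 12.9, 12.3 and 1.09 in 113, 25.01, 22.6, 24.5 and 23.6 in 424, 52.1, 41.1, 50.4 and 52.9 in 65 and 78.2, 84.6, 92.3 and 80.3 in the control. Arrays of 113 and 424, of 424 and 65, and of 65 and the control did not overlap, and 113 overlapped with the null only through replicate 4. The shares of its whole log2 difference were 18.4% between the null and 113, 27.8% between 113 and 424, 28.6% between 424 and 65 and 25.2% between 65 and the control. The mean log2 values of the null and of 113 lay under the filter, and the size of the difference depends on the pseudocount.

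Transcripts of frac had signals of 8.82, 0.624, 9.23 and 2.13 in the null, 9.32, 12.2, 5.41 and 21.7 in 113, 12.6, 24.1, 19.9 and 4.72 in 424, 42.7, 33.96, 38.6 and 51.1 in 65 and 54.2, 119, 68.9 and 49.9 in the control. The 65 and 424 arrays were separate, and 44.9% of the difference lay at that step, the largest share at that step of any of the 25 genes. The control arrays were widely spread, and control replicate 2 was the highest of the 20 arrays. Neurochondrin, the homologue of a neuronal protein of vertebrates, had 173, 108, 109.7 and 186 in the null, 382, 337, 331 and 297 in 113, 574, 459.7, 598 and 418 in 424, 679, 715, 643 and 643 in 65 and 788, 657, 716 and 547 in the control. Here 65 and the control were level, at 670.00 ± 34.2 in 65 and 677 ± 102 in the control, and the 3 lower steps were each without overlap.

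Mal-A5, GstD7, Ir76a and rec make up the remaining named genes. Mal-A5 averaged 19.6 ± 12.2 in the null, 33.5 ± 8.68 in 113, 41.6 ± 12.4 in 424, 47.8 ± 4.68 in 65 and 73.3 ± 9.47 in the control. GstD7 averaged 10.2 ± 5.41 in the null, 18.8 ± 10.1 in 113, 22.3 ± 4.73 in 424, 26.8 ± 5.85 in 65 and 31.2 ± 8.397 in the control. Ir76a averaged 7.64 ± 6.13 in the null, 12.1 ± 4.597 in 113, 16.4 ± 7.16 in 424, 23.2 ± 7.302 in 65 and 29.2 ± 5.23 in the control. In Mal-A5 all arrays of 65 lay below all control arrays, whereas in GstD7 and Ir76a arrays of neighbouring genotypes overlapped at all 4 steps. The signals of rec averaged 7.23 ± 3.33 in the null, 15.04 ± 14.6 in 113, 22.1 ± 11.2 in 424, 25.4 ± 21.1 in 65 and 23.9 ± 4.58 in the control. In linear signal rec was thus not in order at the first step, since the mean of 65 exceeded that of the control, and none of its 4 steps was larger than its SD between arrays of 0.49 on the log2 scale.

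**Figure D2:**
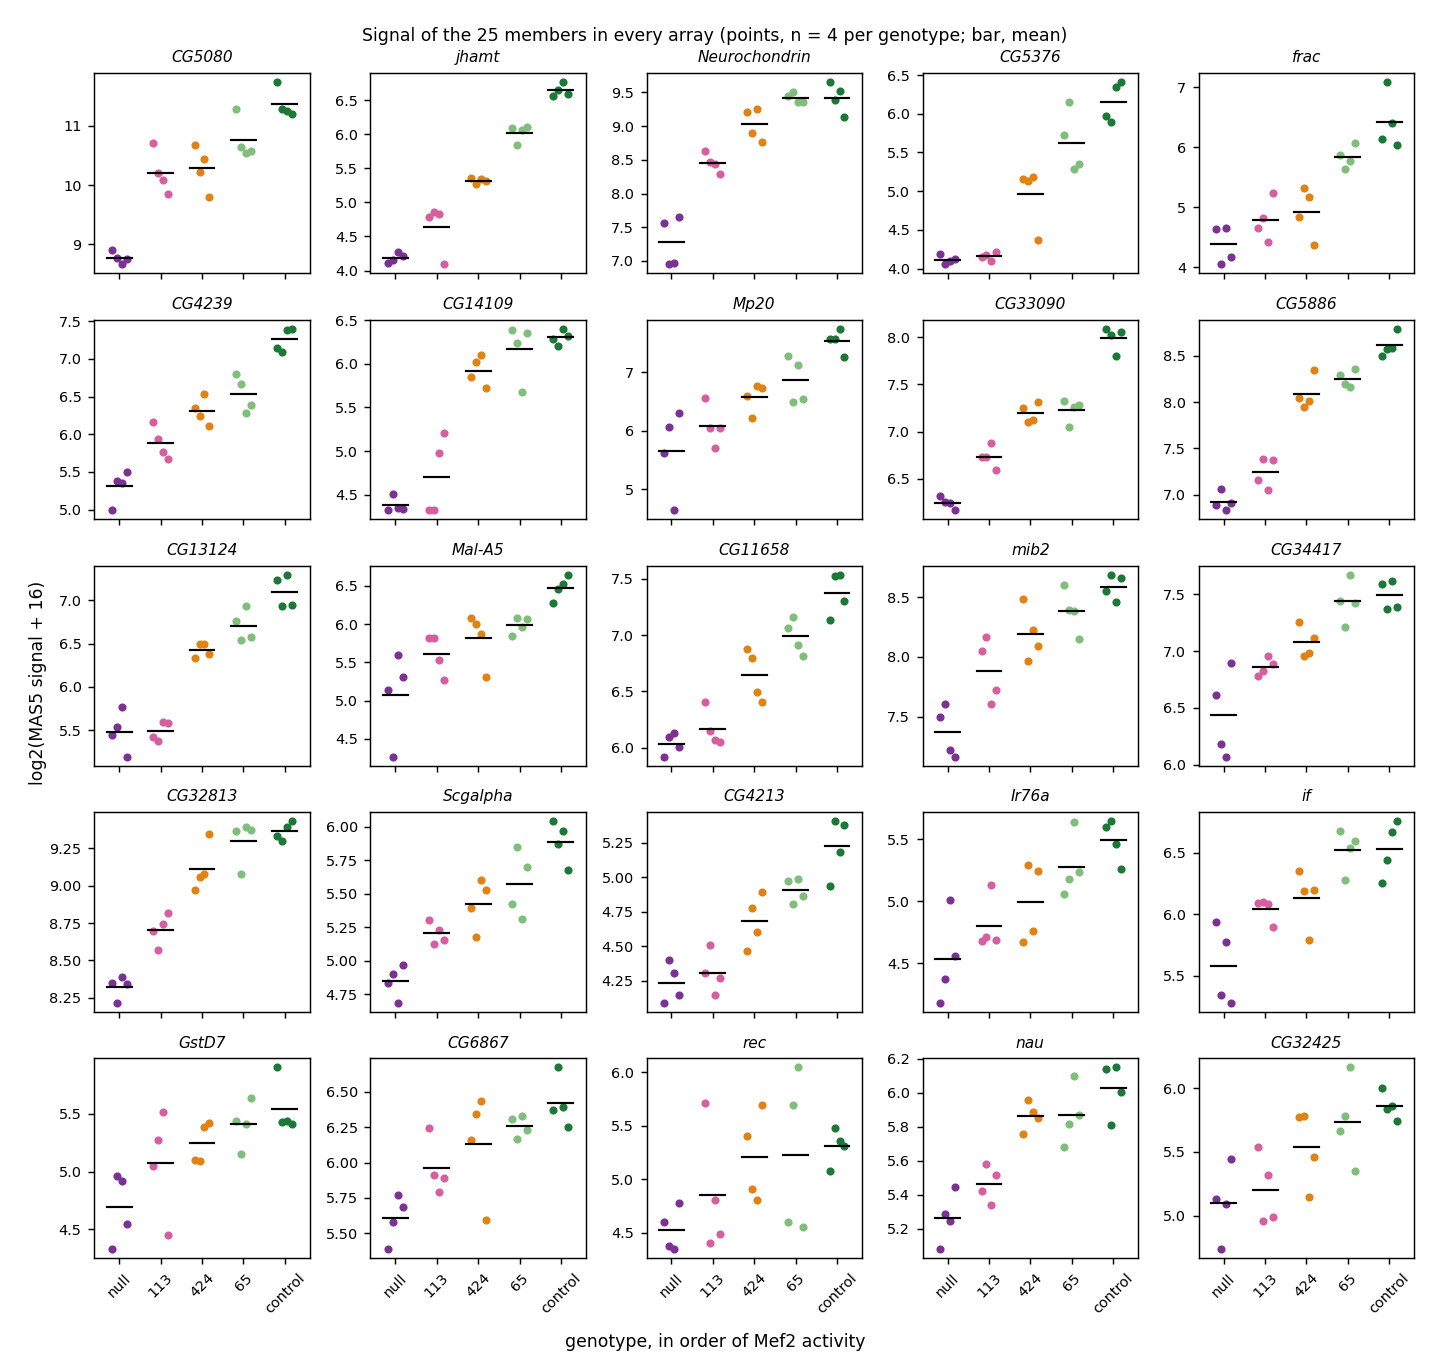
log2(MAS5 signal + 16) of the 25 genes in each of the 20 arrays, 1 panel per gene, with genotypes in order of Mef2 activity from the null to the control; points are arrays (n = 4 per genotype) and bars are means. In every panel all 4 null arrays lie below all 4 control arrays, and neighbouring genotypes overlap at 1 or more steps.

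CG5080 had the largest null difference and the highest signals of the 25 genes. Its arrays were at 462, 423, 391 and 415 in the null, 1660.3, 1161, 1071 and 906 in 113, 1624, 1183, 1371 and 879.7 in 424, 2464, 1590.4, 1473 and 1513 in 65 and 3389, 2483, 2421 and 2341 in the control. Arrays of 113 and 424 overlapped, and 55.4% of the difference lay between the null and 113, the largest share at that step. Replicate 1 was the highest array in each of the 5 genotypes, and the null minus control difference within the 4 hybridisation days was -2.83, -2.51, -2.58 and -2.45.

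CG5376, CG13124 and CG14109 were low in 113 already. CG5376 had 2.23, 0.6596, 1.08 and 1.39 in the null, 1.76, 1.98, 1.05 and 2.62 in 113, 19.7, 19.2, 20.2 and 4.658 in 424, 36.8, 55.04, 22.9 and 24.9 in 65 and 46.6, 43.4, 65.3 and 68.8 in the control. CG13124 had 27.6, 30.3, 38.4 and 20.7 in the null, 26.8, 25.5, 32.5 and 31.9 in 113, 64.8, 74.3, 74.2 and 67.6 in 424, 92.4, 77.2, 106 and 79.3 in 65 and 135, 106, 141 and 107 in the control. CG14109 had 4.04, 6.81, 4.34 and 4.16 in the null, 3.97, 4.03, 15.4 and 20.9 in 113, 41.5, 49.1, 52.7 and 36.9 in 424, 67.9, 59.8, 35.1 and 65.9 in 65 and 62.2, 57.9, 68.7 and 63.9 in the control. In CG5376 and CG13124 the arrays of 113 overlapped with the null and lay below all arrays of 424, and the last step held 2.06% and 0.483% of their difference. In linear signal CG13124 was not in order there, at 29.2 ± 7.32 in the null and 29.1 ± 3.55 in 113. In CG14109 the step between 113 and 424 held 63.2% of the difference, the largest share at that step. The mean log2 values of CG5376 in the null and in 113, and of CG14109 in the null, lay under the filter. Little further fall could show at such signals.

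CG33090 and CG4239 were below the control already in 65. CG33090 had 63.8, 60.1, 59.6 and 55.8 in the null, 90.4, 89.9, 102 and 80.6 in 113, 136, 121, 123 and 144 in 424, 145, 117, 138 and 140.2 in 65 and 257, 245, 207 and 251 in the control. All arrays of 65 lay below all control arrays, 65 and 424 overlapped, and the first step held 43.6% of the difference, the largest share at that step. CG4239 had 15.8, 25.7, 25.1 and 29.2 in the null, 55.7, 45.002, 38.6 and 34.8 in 113, 65.8, 59.5, 77.1 and 53.3 in 424, 94.96, 85.6, 61.6 and 67.9 in 65 and 126, 121, 152 and 153 in the control. Its 65 arrays too were all below the control arrays, and the first step held 37.2%. CG5886 had 102, 117, 97.8 and 104 in the null, 127, 151, 116 and 150.1 in 113, 249, 229.8, 243 and 309 in 424, 297, 276, 269.6 and 312 in 65 and 347, 365, 367 and 428 in the control. Here 65 lay below the control and 113 below 424 without overlap, and 49.9% of the difference lay between 113 and 424.

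The other 6 CG genes had smaller null differences, from -1.34 for CG11658 to -0.76 for CG32425. CG11658 averaged 49.8 ± 4.24 in the null, 56.3 ± 8.49 in 113, 84.9 ± 15.7 in 424, 111 ± 13.7 in 65 and 151 ± 21.9 in the control. All its 424 arrays lay below all control arrays, and its 113 and 424 arrays did not overlap. CG34417 averaged 73.2 ± 23.9 in the null, 100.5 ± 6.43 in 113, 119.5 ± 13.2 in 424, 158 ± 22.7 in 65 and 165 ± 15.9 in the control. CG32813 averaged 305 ± 16.3 in the null, 402 ± 29.8 in 113, 541 ± 65.1 in 424, 617 ± 62.2 in 65 and 644 ± 26.6 in the control. Both were nearly level between 65 and the control, at differences of -0.05 for CG34417 and -0.06 for CG32813, and in CG32813 arrays were separate at the steps between the null and 113 and between 113 and 424. CG6867 averaged 32.97 ± 5.46 in the null, 46.8 ± 8.97 in 113, 55.9 ± 16.9 in 424, 60.7 ± 3.897 in 65 and 70.2 ± 11.04 in the control. CG32425 averaged 18.9 ± 6.94 in the null, 21.3 ± 7.28 in 113, 31.2 ± 9.42 in 424, 38.5 ± 12.9 in 65 and 42.2 ± 4.34 in the control. Arrays of CG32425 overlapped at all 4 steps, and those of CG6867 at all but the lowest. CG4213 was faint throughout, with 2.93 ± 1.902 in the null, 3.905 ± 2.12 in 113, 9.85 ± 3.35 in 424, 14.02 ± 1.82 in 65 and 21.7 ± 5.402 in the control, and its arrays overlapped at all 4 steps.

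The 25 genes divided their difference unequally over the 4 steps. The largest step lay between 113 and 424 in 10 genes, between the null and 113 in 9, between 424 and 65 in 3 and between 65 and the control in 3. The smallest step was most often that between 424 and 65, in 10 genes. The median share of the whole log2 difference was 28.1% between the null and 113, 26.4% between 113 and 424, 17.9% between 424 and 65 and 22.3% between 65 and the control. The shares ranged widely at each step, from 0.483% to 55.4% at the lowest step and from 0.187% to 43.6% at the highest. Genes with a first step under 10% of the whole were Neurochondrin, if, CG34417, CG32813 and CG14109. The limits that chose the genes bear on these counts and shares, since the middle steps count towards both limits. Means under the filter, in 7 genes in the null and in 3 in 113, also left little room at the lowest step. The step shares are thus descriptions of the chosen genes only.

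**Figure D3:**
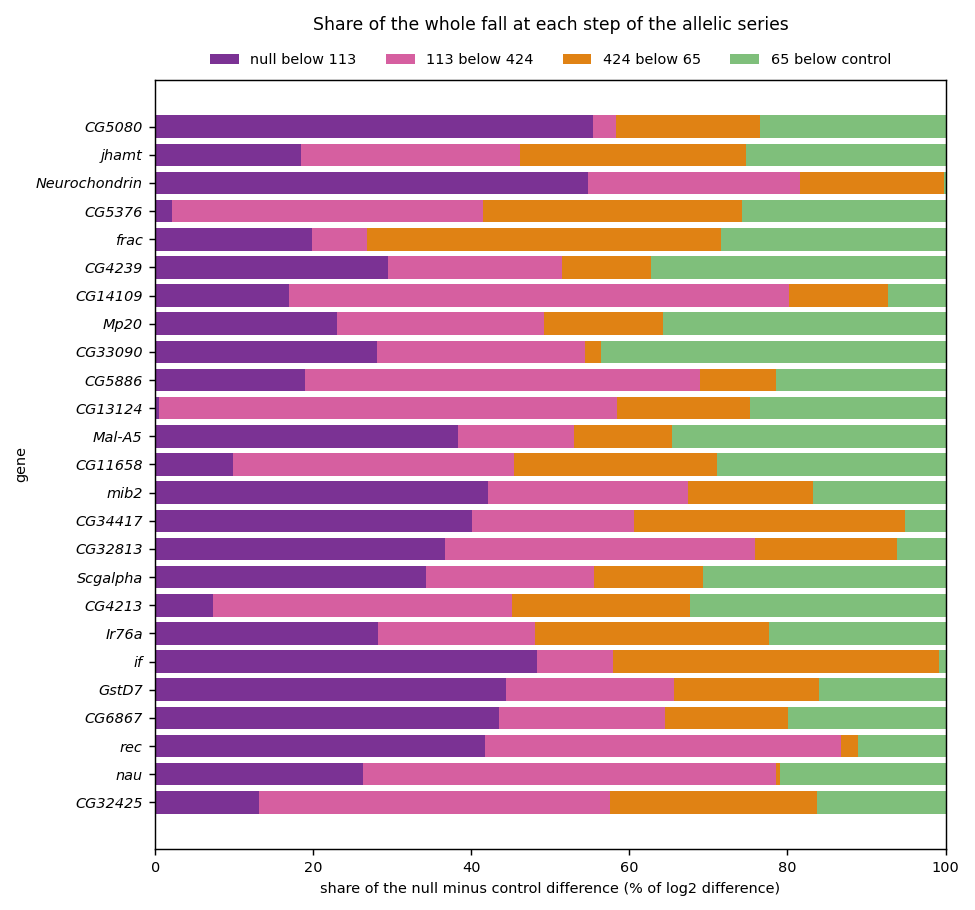
Share of the null minus control difference, in percent of the log2 difference, that lies at each of the 4 steps between neighbouring genotypes, for the 25 genes ordered by the size of the null difference. The purple segment (null below 113) takes 55.4% in CG5080 and 0.483% in CG13124, and the green segment (65 below control) takes 43.6% in CG33090 and 0.187% in Neurochondrin.

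The order of the means was finer than the spread between arrays could resolve at many steps. All 4 null arrays lay below all 4 control arrays in 25 of 25 genes (11.3% of all genes), 113 arrays in 23 (6.56%), 424 arrays in 15 (7.95%) and 65 arrays in 6 (5.32%). Of the 100 steps between neighbouring genotypes in the 25 genes, 28 were without overlap between arrays and 63 were larger than the gene's pooled SD between arrays. The null lay fully below 113 in 7 genes (9.47% of all genes), 113 below 424 in 10 (6.94%), 424 below 65 in 5 (5.75%) and 65 below the control in 6. Arrays were separate at 3 of the 4 steps in jhamt, Neurochondrin, CG33090 and CG13124, and 9 genes overlapped at all 4. All 4 steps exceeded the pooled SD in jhamt, CG4239 and CG5886. The pooled SD of the 25 genes had a median of 0.22 on the log2 scale, against 0.22 for all genes.

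The arrays were run on 4 days, and 65 had arrays on 2 of them only. Within each day the null was below the control in 25 of 25 genes, with medians of -1.42, -1.40, -1.40 and -1.34. That count was fixed beforehand, since every null array lay below every control array in these genes. The daily orders that follow use the arrays whose means chose the genes, so they are descriptions too. The full order of the genotypes present held on day 1 in 13 genes, on day 2 in 19, on day 3 in 10 and on day 4 in 15. Days 2 and 4 had no array of 65, so fewer genotypes had to be in order there. The order held on all 4 days in Neurochondrin, CG5886 and CG32813. The run record of 65 replicate 4 states that its fluidics run was aborted. Without that array 27 genes met the conditions, 22 of them among the 25.

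The fluidics module differed between genotypes: all 4 control arrays were washed on module 4, which otherwise held 2 null arrays, so 113, 424 and 65 shared no module with the control. Within module 4 the null was below the control in 25 of 25 genes, with a median of -1.23. Within module 3 the null was below 113 in 23 and below 65 in 25, and 113 was below 65 in 24. Within module 2, 113 was below 424 in 24, and within module 1, 424 was below 65 in 24. The count in module 4 was fixed beforehand, since every null array lay below every control array in these genes. The counts in the other modules use arrays whose means chose the genes, so they are no check on the order. With the module as a block the estimates stayed in order in 20 of the 25 genes. The exceptions were Neurochondrin, Mp20, Mal-A5, if and rec, and in that fit Mp20 was at -2.40 in the null and -2.62 in 113, and if at -0.67 in the null, 0.08 in 113 and 0.48 in 65.

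Some features of the genes were not used in choosing them. Of the 25 genes, 9 lay on the second chromosome, which carries the mef2 alleles, or 36.000%, against 37.8% of all 8360 genes. A further 11 lay on the third chromosome (5 on 3L and 6 on 3R) and 5 on the X. In 4 genes other probe sets measured the same gene. For CG32813, 1 further probe set gave the same order, with differences of -1.06 in the null, -0.58 in 113, -0.20 in 424 and -0.05 in 65. Another gave -0.71 in the null, -0.33 in 113, -0.35 in 424 and -0.27 in 65, with 113 and 424 out of order, and the last gave 0.12 in the null. Whether these probe sets share probes was not examined.

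The second probe sets of the other 3 genes did not show the order. That of CG34417 gave -0.02 in the null and 0.38 in 113, at signals of 22.7 ± 13.2 in the null and 21.4 ± 5.02 in the control. That of rec gave -0.35 in the null, and that of CG32425 gave -0.13 in the null, at a signal under the filter in all 5 genotypes. The order of CG34417, rec and CG32425 therefore rests on 1 probe set each.

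Close to the limits, the genes with the smallest difference of control minus 113 among those chosen were rec at 0.46 and CG6867 at 0.46, and the nearest genes that failed only this limit were ktub at 0.34 and cv-d at 0.31. For 65 minus null the nearest inside were nau at 0.60 and CG32425 at 0.64, and the nearest outside were emei at 0.57 and CG1943 at 0.57. In all, 131 genes, or 1.57% of the 8360, had the strict order of the 5 means, and 90, or 1.08%, had the strict reverse order. With the limits turned round, 3 genes stepped up towards the null. They were Non3, at 493 ± 35.8 in the null and 207 ± 19.1 in the control, Mic26-27, at 838 ± 68.9 in the null and 367 ± 50.3 in the control, and CG14989, at 231 ± 27.7 in the null and 103 ± 17.99 in the control.

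Of the 11 genes left out by name, Mlc1, Mlc2, up, Tm2, bt, Msp300 and usp had the same order and passed the same limits, and TpnC73F, sls, sing and Argk1 did not. The 6 muscle genes among the 7 had null differences of -3.09 for Mlc2 to -1.49 for bt, and the hormone receptor gene usp was at -1.20. The largest null difference of the 25 genes, -2.59 in CG5080, was thus smaller in size than those of the myosin light chain genes Mlc1 and Mlc2. The myosin chaperone gene unc-45 showed a level profile instead, called lower in each mutant, at -0.77 in the null, -0.77 in 113, -0.74 in 424 and -0.69 in 65 (limma adjusted p = 5.65e-05 in the null and 6.66e-04 in 65). No array of 113, 424 or 65 shared a fluidics module with the control. For these alleles a difference between modules and one between genotypes cannot be told apart in a level profile.

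**Figure D4:**
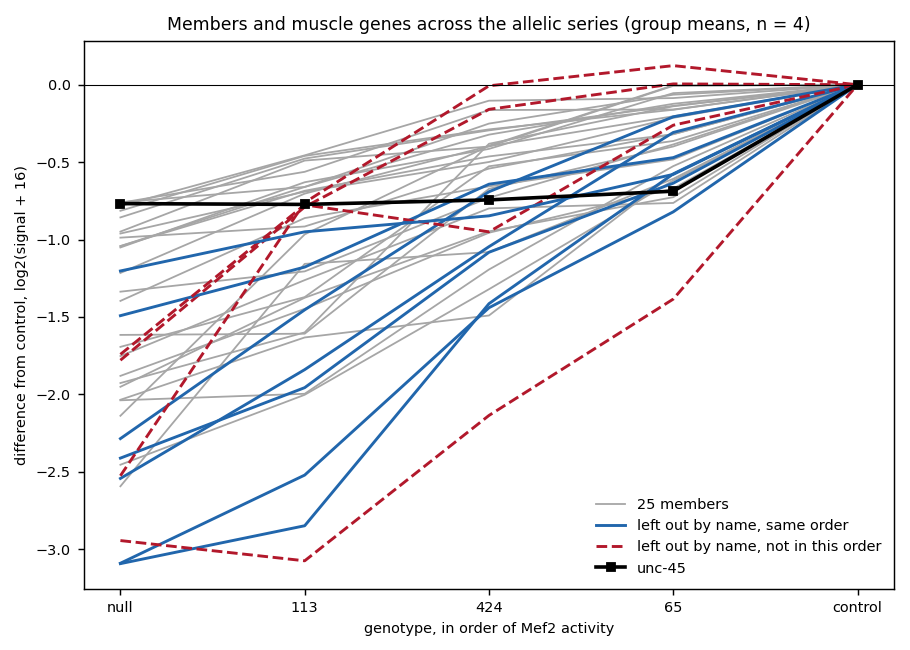
Difference from the control on the log2(signal + 16) scale across the genotypes, from the null to the control, for the 25 genes (grey), the 7 genes left out by name that had the same order (blue), the 4 left out that did not (red, dashed) and unc-45 (black); lines join group means (n = 4). The grey lines end between -2.59 and -0.76 in the null, and unc-45 stays between -0.77 and -0.69 in all 4 mutants.

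Other genes of the muscle programme, which the graded rule had not chosen, were tested with limma, with calls at an adjusted p under 0.05. The rule that set the chosen genes aside used these same means, and the genes left out by name had been described before. Both bear on the counts and medians of the further genes. All calls in 113, 424 and 65 also set those arrays against a control run on another fluidics module. Of 18 sarcomere genes other than those left out by name, 5 were called lower and 2 higher in the null, where 19.8% of all genes were called, and 1 lower and 1 higher in 113 (7.38% of all genes). In 424, where 10.2% of all genes were called, 3 were lower and 2 higher, and in 65, where 6.08% were called, 1 was lower and 1 higher. The median difference of the 18 in the null was -0.17, against -0.01 over all genes. Of 44 sarcomere genes listed, 26 were tested, 8 of them left out by name. With those 8 included, 13 were called lower and 2 higher in the null (19.8% of all genes were called), at a median of -0.29. The 8 had been described before, so nothing is read from that count. Besides unc-45, the alpha-actinin gene Actn fell by 0.61 in the null and by 0.45 in 424, and the formin gene Fhos changed by -0.56 in the null (limma adjusted p in the null = 2.60e-04 for Actn and 0.00185 for Fhos). The muscle actin genes Act79B and Act87E changed by -0.32 and -0.24 in the null, while tmod, the gene of a cap of thin filaments, was higher in all 4 mutants, at 0.28 in the null and 0.38 in 65. With the mean of its probe sets in place of 1 probe set, tmod was at -0.20 in the null and was not called. Act79B was no longer called with the fluidics module as a block, nor Act87E with median centring. None of these 6 genes had the graded order, which 1.57% of all genes had.

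Of 30 further genes of muscle membrane, calcium handling and energy supply, 10 were called lower and 1 higher in the null (19.8% of all genes), and 3 were called lower in 113 with 0 higher (0 at an unadjusted p under 0.05), where 7.38% of all genes were called. In 424 the counts were 4 lower and 0 higher (2 at an unadjusted p under 0.05), where 10.2% of all genes were called. In 65 they were 2 lower and 1 higher (6.08% of all genes). Their median null difference was -0.24. The calcium channel gene Ca-alpha1D had the graded order too, at -0.89 in the null, -0.79 in 113, -0.46 in 424 and -0.35 in 65 (limma adjusted p = 3.22e-04 in the null and 0.00285 in 113), and it missed the limit of 0.6 for 65 minus null. In contrast, Dyb, the gene of another protein of the dystrophin complex, was at -0.99 in the null and -0.09 in 113 (limma adjusted p = 2.54e-04 in the null and 0.868 in 113), and was not called with the mean of its probe sets. The glutamate receptor gene GluRIIB was called lower in all 4 mutants, at -1.08 in the null and -0.999 in 65. SERCA, the calcium pump of the sarcoplasmic reticulum, changed by -0.49 in the null, and the glycogen enzyme genes Glyp and Glys by -0.79 and -0.48.

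Of 32 further genes of muscle attachment and integrin adhesion, 7 were called lower and 5 higher in the null (19.8% of all genes; median -0.07), and 5 lower and 1 higher in 113 (7.38%). The counts were 4 lower and 1 higher in 424 (10.2% of all genes), and 2 lower and 1 higher in 65 (6.08%). The partner of if in the muscle integrin, the beta-PS gene mys, had another profile, at -0.41 in the null, -1.42 in 113, -1.41 in 424 and -1.10 in 65, and was called lower in each. The integrin ligand gene Tig changed by -1.11 in the null and -0.52 in 113. Of the cytoplasmic adaptors, parvin was at -0.70 and stck at -0.48 in the null, and the talin gene rhea was higher, at 0.40, as was the receptor gene drl, at 0.47. With the mean of its probe sets rhea was no longer called. The means of parvin were in graded order, with -0.24 in 113, -0.24 in 424 and -0.12 in 65, none of which was called.

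Of 42 further mesoderm and myogenic regulators, 12 were called lower and 5 higher in the null (19.8% of all genes; median -0.13), and 5 lower and 2 higher in 113 (7.38%). They were 5 lower and 2 higher in 424 (10.2% of all genes), and 3 lower and 2 higher in 65 (6.08%). HLH54F, a regulator of visceral mesoderm, was at -1.28 in the null, -0.62 in 113 and -0.08 in 424, and zfh1, a zinc-finger gene, was at -1.19 in the null, -0.56 in 113 and -2.37 in 424. Thus zfh1 was lowest in 424. The homeobox gene bap had the graded order, at -0.64 in the null, -0.42 in 113, -0.38 in 424 and -0.25 in 65, and was called in the null only. Cf2 was lower in the null, at -0.54, and caup and akirin were higher, at 0.68 and 0.40.

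Of 21 myoblast fusion genes other than sing, 1 was called lower and 3 higher in the null (19.8% of all genes; median 0.01). In 113 the counts were 0 lower (0 at an unadjusted p under 0.05) and 2 higher, in 424 0 lower (1 unadjusted) and 1 higher, and in 65 0 lower (2 unadjusted) and 1 higher. Of all genes, 7.38% were called in 113, 10.2% in 424 and 6.08% in 65, so such small counts say little about fusion genes. The lower gene was rols, at -0.51, which was not called with the mean of its probe sets, and the higher ones were Vrp1, ihog and lmd, at 0.72, 0.66 and 0.42. No gene of this list had the strict graded order, which 1.57% of all genes had, so nothing is read from its absence in 21 genes. Of the further genes, from which the chosen genes had been set aside, 3 mesoderm regulators, 2 attachment genes and 1 membrane gene had it.

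Of 12 measured markers of somatic and visceral muscle, 9 were called lower in the null, all of them genes left out by name, and the other 3 were not called (1 was lower at an unadjusted p under 0.05). Markers of other tissues in the whole embryo were summed for comparison. The 5 measured visceral mesoderm markers were all called lower in the null, and their summed signal was between 1606 and 2038 in the null, between 2138 and 2685 in 113, between 1549 and 2292 in 424, between 2053 and 2628 in 65 and between 2309 and 2786 in the control. The null sums lay below all control sums, and the sums were not in the graded order over the 5 genotypes. The median difference of these markers was -0.49 in the null, -0.42 in 113, -0.35 in 424 and -0.07 in 65. Of the 5, 2 had the graded order, bap and org-1 (1.57% of all genes had it). Of the 5 fat body markers 1 was called lower, apolpp, and their sum was between 1546 and 1942 in the null, between 2028 and 2349.7 in 113, between 1889 and 2204 in 424, between 1992 and 2434 in 65 and between 2394 and 2513 in the control, with the null, 113 and 424 below the control without overlap. The median difference of the fat body markers was -0.12 in the null, -0.13 in 113 and 0.09 in 424. Of 8 hemocyte markers 1 was called higher in the null (19.8% of all genes were called there), and of 8 glial markers 3 were called lower and 2 higher. The sums for hemocytes were between 1408 and 1596 in the null and between 1371 and 1465 in the control, and for glia between 2008 and 2258 in the null and between 2083 and 2222 in the control. The tracheal sums were between 4384 and 5043 in the null, between 4991 and 6175 in 113, between 3143 and 4063 in 424, between 4283 and 4898 in 65 and between 3755 and 4357 in the control, so that the null and 113 lay above the control without overlap. A sum weighs the brightest markers most: the median difference of the 7 tracheal markers was -0.10 in the null and 0.15 in 113. In the null 1 of them was called lower and 1 higher. The neuronal sums were between 1132 and 1433 in the null, between 1332 and 1519 in 113, between 1356 and 1568 in 424, between 1338 and 1430.1 in 65 and between 1164 and 1258 in the control, and those of 113, 424 and 65 lay above the control without overlap. The heart sums were between 719 and 780.2 in 424 and between 836 and 1019 in the control, and the epidermal sums between 2185 and 2526 in 424 and between 2804 and 3055 in the control, both lower in 424 without overlap. The gut sums were between 766 and 957 in the null and between 842 and 1011 in the control, which overlapped. Of the markers in these lists, limma called in the null, where 19.8% of all genes were called, 1 of 9 heart markers, 1 of 9 neuronal markers, 5 of 15 epidermal markers, 2 of 7 tracheal markers and 0 of 7 gut markers (2 lower and 1 higher at an unadjusted p under 0.05). No marker of trachea, neurons, heart, epidermis, gut, glia, hemocytes or fat body had the graded order. Only 1.57% of all genes had it, so nothing is read from its absence in these short lists. The part of these tissues in the levels of the 25 genes was not tested. The median signal per array was 33.7 to 37.4. It was 33.7 up to 34.8 in the null arrays, all below the 35.5 up to 37.3 of the control arrays, and 1 array of 424, at 34.7, lay within the null range.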

How the data were processed

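Messenger RNA of whole embryos was measured on 20 one-colour Affymetrix arrays, 4 for each of 5 genotypes. The deposited intensity of each probe set is on a linear scale and comes from MAS5 as run by the authors (per the submitters' processing notes); which version and which genome build is not given in the sources used here. Of 14010 probe sets, 12443 had 1 gene symbol, and the probe set with the highest mean log2(signal + 16) stood for its gene. Genes with an overall mean of at least 4.66 on this scale were kept, which left 8360 of 10844. Chromosomes came from the RefSeq Release 6 gene table.

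Genotype means were fitted to all 20 arrays with limma 3.58.1 (R 4.3.3, eBayes with trend), and p-values were Benjamini-Hochberg adjusted over all 8360 genes at a threshold of 0.05. The number of arrays limits the precision. The p-values set a difference of means against the spread between arrays, which may be technical, so they may not cover variation between embryo collections. The genes described, and the gene and marker lists, were chosen with earlier results of these data known. Values in every array are given for the 10 genes with the largest null difference and the 6 whose neighbouring genotypes overlap least, and, chosen after their values were seen, for 4 muscle genes; of each list, up to 6 further genes with the smallest adjusted p in the null are named. Alternatives were the pseudocount, the filter, the centring, quantile normalization, the choice of probe set, the hybridisation day, the fluidics module, the replicate number as a block and leaving out each array. The software was python 3.11.15 with pandas 2.3.3, numpy 2.4.6 and, for plots, matplotlib 3.10.9.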

Additional observations from a re-analysis of the deposited data

Results flagged for a closer look

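In 9 of the 125 groups of 4 arrays (25 genes in 5 genotypes), 1 array lay far from the other 3 on the log2(signal + 16) scale by Dixon's criterion, which chance meets in about 1 of 20 groups. CG5080 had a signal of 2464 in 65 replicate 1, against 1473 to 1590.4 in the other 65 arrays, and of 3389 in control replicate 1, against 2341 to 2483 in the other control arrays. Both belong to the gene in which replicate 1 was the highest array of every genotype. The signal of jhamt was 1.09 in 113 replicate 4, against 11.5 to 12.9 in the others of 113, and that of CG5376 was 4.658 in 424 replicate 4, against 19.2 to 20.2 in the others of 424. CG14109 was at 6.81 in null replicate 2, against 4.04 to 4.34 in the other null arrays. CG32813 was at 524 in 65 replicate 2, against 643 to 655 in the other 65 arrays. Ir76a was at 18.98 in 113 replicate 3, against 9.52 to 10.2, and if was at 43.5 in 113 replicate 4, against 51.8 to 52.5 in the other arrays of 113. GstD7 was at 43.8 in control replicate 1, against 26.6 to 27.4 in the other control arrays.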

How the results depend on the processing

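The number of genes that met the conditions depended on the scale and the filter. It was 48 with a pseudocount of 1 (24 of them among the 25), 14 with a pseudocount of 64, 13 with the lowest 50% of genes left out, and 3 when the order had to hold within every hybridisation day. It was 19 with median centring and with quantile normalization, 21 with the mean of probe sets, 25 with no filter on low values, and 20 to 27 when 1 array was left out. The genes were not always the same: 12 of the 25 met the conditions whichever array was left out, 20 of 25 missed them under at least 1 of 30 settings (the daily order apart), and rec met them under 13 of the 30. By the estimates with the fluidics module as a block, chosen after seeing the data, 26 genes met them, 17 of them among the 25. With the module as a block, limma called 82 genes in 113, 80 in 424 and 64 in 65, against 617, 849 and 508 without it. In that fit no module holds both the control and any of 113, 424 and 65, so those contrasts rest on indirect comparisons. Leaving out 1 array gave 1406 to 1686 calls in the null, 470 to 642 in 113, 632 to 863 in 424 and 378 to 528 in 65. Median centring turned the split in the null to 971 higher and 747 lower, against 741 higher and 915 lower. The null minus control difference of the 25 genes moved by more than 1 SD in 45 recomputations and by less in 693, and reversed in none. Many of these recomputations could not move it. Leaving out an array of 65, 424 or 113, changing the filter, and the day and replicate blocks all keep that difference as it was. Leaving out 1 array could not reverse it either, since every null array lay below every control array. The count of 693 is therefore no measure of stability. Of the 45, 19 came with a pseudocount of 1 and 21 with one of 64. Among the other named genes tmod reversed, to -0.20 in the null with the mean of its probe sets, and the cause was not tested. Replicate n was hybridised on day n in the null, 113, 424 and the control, but not in 65, and the labels give the number no other meaning. Deviations of same-numbered arrays correlated by -0.02 to 0.17, over 0.1 in 10 of 40 pairs, 9 of them in replicate 4, so a pairing over all numbers was not established. With the number as a replicate block, 1883 genes were called in the null, 733 in 113, 1037 in 424 and 599 in 65, which is under 1.5 times the count without it in each. Signals near the filter limit what can be said of the size of the difference, since 7 of the 25 genes had a null mean under it.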
